A study of Mus musculus with 7 samples.

Results

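Glycolytic enzymes from aldolase to enolase were followed in 7 Tnc-deficient mice, in the soleus, a hindlimb muscle made mostly of slow fibres. Tnc encodes the matrix protein tenascin-C. The 5 genes are Aldoa, Aldoc, Gapdh, Pgk1 and Eno2, each with 1 probe, of 203 named genes and 223 probes on the array, and they were taken by gene symbol whatever their signal. Per the labels all 7 animals were Tnc-deficient cage controls of the 129/SV strain, and the design text calls them biological replicates. They form 1 group, and no wild-type or treated animal was analysed here, so what the loss of Tnc does cannot be read from these arrays. Age, the allele, and whether the gene is missing in all tissues are not given in the labels. Total RNA, 4 µg from cryosections of the muscle belly, was copied with gene-specific primers into radioactive cDNA and hybridised to a 1-channel array.

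Glycolysis breaks glucose down to pyruvate in the cytosol and yields ATP without oxygen. Fast muscle fibres rely on it more than slow fibres do. Aldolase splits fructose bisphosphate into 2 trioses, glyceraldehyde-3-phosphate dehydrogenase (Gapdh) oxidises and phosphorylates one of them, phosphoglycerate kinase (Pgk1) then makes ATP, and enolase forms phosphoenolpyruvate. Aldolase A (Aldoa) is the main muscle isoform and aldolase C (Aldoc) the main brain isoform, while gamma enolase (Eno2) is typical of neurons. The muscle enolase Eno3 and the widespread Eno1 had no named probe, so muscle-type and brain-type isoforms could be set side by side for aldolase alone.

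Several of these genes are textbook targets of hypoxia-inducible factors, whose core site is short, so the bases before their transcription starts were read from RefSeq (build GRCm38.p6). All 5 genes matched, with 8 start sites, of which Aldoa had 3 and Aldoc 2. Of these, 4 windows of 250 bases that end just before a start are shown because they hold that core in genes the values turn on. Each runs 5′ to 3′ on the gene's strand, and capitals mark ACGTG or GCGTG or the same letters read on the other strand (CACGT or CACGC).
Gapdh (chr6:125165774-125166023, minus strand): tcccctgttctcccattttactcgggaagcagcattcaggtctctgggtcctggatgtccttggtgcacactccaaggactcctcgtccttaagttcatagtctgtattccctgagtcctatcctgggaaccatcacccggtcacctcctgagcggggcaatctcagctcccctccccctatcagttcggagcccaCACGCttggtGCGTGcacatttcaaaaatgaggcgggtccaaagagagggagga
Pgk1 (chrX:106186850-106187099, plus strand): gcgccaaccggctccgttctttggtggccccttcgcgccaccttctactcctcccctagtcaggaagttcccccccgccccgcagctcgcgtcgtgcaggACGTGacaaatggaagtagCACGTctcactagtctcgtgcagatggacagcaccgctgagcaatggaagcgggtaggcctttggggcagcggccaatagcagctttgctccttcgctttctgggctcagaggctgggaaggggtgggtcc
Aldoa, the second annotated start (chr7:126799255-126799504, minus strand): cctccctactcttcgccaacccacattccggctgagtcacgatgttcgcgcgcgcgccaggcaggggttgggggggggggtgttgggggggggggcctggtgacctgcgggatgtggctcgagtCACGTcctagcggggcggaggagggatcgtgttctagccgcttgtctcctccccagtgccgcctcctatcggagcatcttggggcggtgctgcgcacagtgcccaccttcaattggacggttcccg
Aldoc, the first annotated start (chr11:78322823-78323072, plus strand): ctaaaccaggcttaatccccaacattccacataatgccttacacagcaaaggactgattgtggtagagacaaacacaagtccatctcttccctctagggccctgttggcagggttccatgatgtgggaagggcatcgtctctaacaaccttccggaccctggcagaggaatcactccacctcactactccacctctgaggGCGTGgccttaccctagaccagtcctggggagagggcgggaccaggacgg

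The core occurred 2 times before the start of Gapdh, with first bases at -54 and -44, and 2 times before Pgk1, at -150 and -131. The Aldoa and Aldoc windows shown held 1 each, at -126 and -50. In all, 6 of the 8 windows held it, those of the most upstream Aldoa start and of Eno2 did not, and 2 of the 6 overlap, being neighbouring starts of Aldoa. The core is common, since 38.6% of all 32851 such windows held it. The GC box GGGCGG, searched on both strands, was in 4 of the 8 windows against 32.7% of all windows, and no match of the core overlapped one. The MEF2 site, bound by a muscle factor, was in 0 of 8 against 2.92% of all. A match describes letters in a window and not a bound site. The probes of the hypoxia regulators were dim. Hif1a carried 0.06% to 0.09% of the array sum on the 6 arrays other than replicate 3, and Arnt, its partner, 0.10% to 0.13%. None of the 4 hypoxia regulators probed (of 8 listed) was clearly above the array floor on any of the 6. A dim probe does not show a scarce transcript or protein, because its signal also depends on primer and probe.

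Each deposited value is a share of the summed signal of its array, given here in percent. The floor of an array is the 10th percentile of its probes, from 0.04% to 0.08% on 6 arrays and 0.15% in replicate 3, and a probe above 3 times that floor is called clear. Replicate 3 went against its label. The slow-fibre markers Myh7 and Mb together carried 0.67% there against 15.2% to 22.0% in the other 6 muscles (2 of 8 listed markers had a probe), the fast-fibre markers 0.83% against 3.85% to 8.77% (3 of 9), and the endothelial markers 9.50% against 0.45% to 1.27% (5 of 7). Of that 9.50%, Pecam1 alone made up 8.36%, and Kdr, Tek and Flt1 read 0.16%, 0.16% and 0.22%, near the floor. Replicate 3 also had 29 clear probes against 42 to 70, the lowest 28S rRNA signal (0.37%) and the lowest signal of the unnamed bright probe outside the sum (4.86% against 30.1% to 134%). Whether the RNA, the hybridisation or the identity of this sample differed was not tested, and values with n = 7 include it as labelled. Its log2 profile correlated with the others at r of 0.248 to 0.412 across probes, against 0.876 to 0.992 among the other 6. The 6 others differ in 28S rRNA, which was low in replicates 1 and 2 (3.48% and 3.79%) and high in replicates 4 to 7 (24.1% to 49.7%). Results are therefore given with and without replicate 3, and beside that split. The replicate numbers only name the samples.

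The muscle aldolase Aldoa and Gapdh were bright in 6 muscles, whereas Pgk1, Aldoc and Eno2 were clear but close to the floor. All 5 probes were clear on each of these 6 arrays, where 17.0% of all probes were, and Aldoa and Gapdh were clear on all 7, where 4.04% of all probes were. With the array median in place of the floor, Pgk1 and Aldoc were clear on 5 arrays and Eno2 on 4. Together the 5 probes carried 22.2% ± 3.3 of the array sum (SD, n = 6), of which Aldoa and Gapdh made up 21.2% ± 3.5 and the other 3 probes 1.01% ± 0.14. In replicate 3 they carried 1.85%. Because a spot's signal also depends on its primer and probe, these shares do not rank the transcripts.

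Aldoa carried 9.85%, 12.2%, 11.1%, 8.47%, 13.2% and 10.1% in replicates 1, 2, 4, 5, 6 and 7, and 0.65% in replicate 3. The 6 values lay within 1.55-fold of each other, with a mean of 10.8% ± 1.7 (SD, n = 6; 9.36% ± 4.15 with replicate 3, n = 7). Replicate 3 was below all of them, at 4.33 times its own floor against 106 to 306 times in the others. That array was below every other for 14.3% of all probes, a share that includes dim probes, and its floor was the highest (0.15%).

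Gapdh, whose transcript is often used as a reference in expression studies, carried 14.7% and 13.7% in replicates 1 and 2. It carried 7.97%, 8.43%, 6.23% and 11.1% in replicates 4 to 7, and 0.66% in replicate 3. Both of the first pair lay above all of the latter 4, as 4.48% of all probes did. Centring on the array median could only keep this order, because the first pair had the lowest medians of these 6 arrays (0.07% each). It therefore does not check the order. Aldoa, which did not show the order as deposited, gained it after centring. The 6 Gapdh values spanned 2.36-fold, with a mean of 10.4% ± 3.4 (SD, n = 6; 8.97% ± 4.79, n = 7). The order of Gapdh and the 28S rRNA split cannot be told apart, since the pairs of arrays coincide.

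Pgk1 carried 0.41%, 0.35%, 0.35%, 0.38%, 0.33% and 0.40% in replicates 1, 2, 4, 5, 6 and 7, and 0.17% in replicate 3. The first 6 had a mean of 0.370% ± 0.032 (SD, n = 6; 0.341% ± 0.081, n = 7). They spanned 1.24-fold, and values are recorded in steps of 0.01%. On these arrays Pgk1 read at least 4.38 times the floor. In replicate 3 it read 1.13 times the floor and was not clear.

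Aldoc, the brain-type aldolase, carried 0.25% and 0.15% in replicates 1 and 2, and 0.40%, 0.37%, 0.31% and 0.37% in replicates 4 to 7. Both of the first pair were below the 4 others, as 30.0% of all probes were, so this order was common on these arrays. It was lost after centring on the array median, where replicate 1 (1.84 on the log2 scale) lay above replicates 4, 5 and 6 (1.62, 1.75 and 1.63). The mean was 0.308% ± 0.094 (SD, n = 6; 0.291% ± 0.097, n = 7). Replicate 3 read 0.19%, inside the range of the others, but at 1.27 times its own floor. Aldoc was thus the only member for which replicate 3 was not below every other array. The 4 others were, against the 14.3% of all probes given above, which includes dim probes. The muscle probes Myh7, Mb, Myh2, Myh1 and Myh4, and Ldhb and Pdha1, were also lowest there, so this fall was not particular to these enzymes. Other probes clear on the 6 arrays, such as Slc2a4 and Itgb1, read highest in replicate 3.

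Eno2, the neuronal enolase, carried 0.26%, 0.29%, 0.44%, 0.32%, 0.44% and 0.23% in replicates 1, 2, 4, 5, 6 and 7. It read 0.18%, or 1.20 times the floor, in replicate 3. The mean was 0.330% ± 0.090 (SD, n = 6; 0.309% ± 0.10, n = 7), and replicates 1 and 2 lay inside the range of replicates 4 to 7. The array held no probe for any of the 13 listed markers of nerve and Schwann cells, so the part of nerve RNA in the Eno2 and Aldoc signals was not tested. In RNA from whole muscle, fewer cells of a type and less RNA per cell cannot be told apart.

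**Figure D1:**
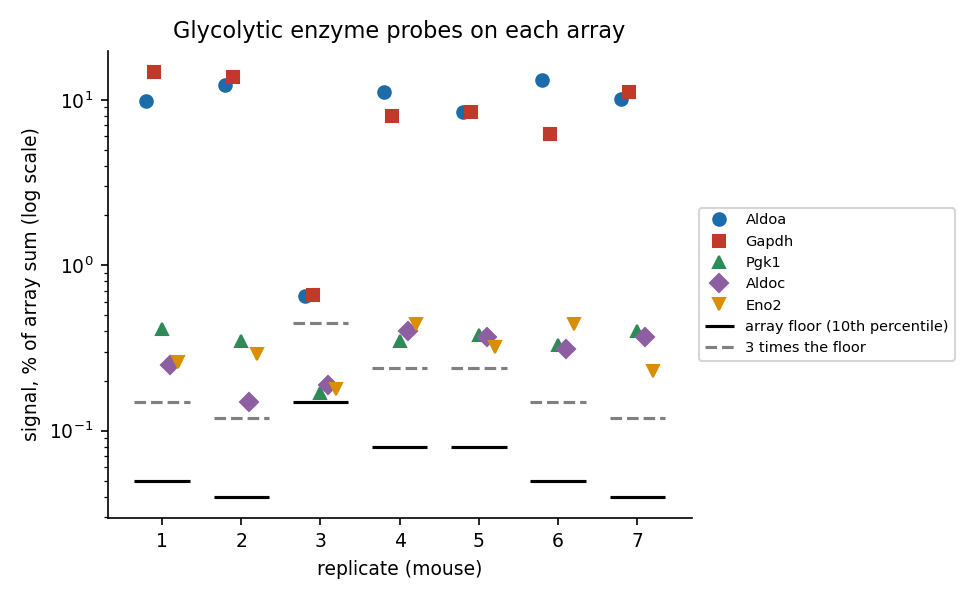
Signal of the 5 enzyme probes in percent of the array sum (log axis) for each of the 7 mice, with the floor of each array (solid line) and 3 times that floor (dashed line). Aldoa and Gapdh sit far above the lines on 6 arrays and at 0.65% and 0.66% in replicate 3, where Pgk1, Aldoc and Eno2 lie just above the floor.

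Which enzymes held steady between mice was asked next. On the log2 scale the SD over the 6 arrays was 0.12 for Pgk1, 0.23 for Aldoa, 0.39 for Eno2, 0.48 for Gapdh and 0.53 for Aldoc. Among the 36 probes that were inside the array sum and clear on all 6, Pgk1 had the second smallest SD and Aldoa the fifth, and the median was 0.34. Gapdh and Aldoc stood at ranks 29 and 30 from the smallest, so the catalysts of neighbouring steps were not alike in their spread. The difference in spread between 2 genes was not tested. Dividing by the array median, which itself moved by 0.89 (log2) among these 6 arrays, gave another order. The SDs became 0.26 for Eno2, 0.36 for Aldoc, 0.44 for Pgk1, 0.45 for Aldoa and 0.82 for Gapdh, against a median of 0.53. The wide spread of Gapdh was seen on both scales, and the steadiness of Pgk1 was not. The centred scale brings in the movement of the median, which was lowest in replicates 1 and 2, where Gapdh was highest. It is therefore not a separate check on either gene.

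The spread of each probe was then compared with limma's variance trend by an F test, one-sided for a spread larger than the trend. Benjamini-Hochberg adjustment covered all 223 probes. None of the 5 members was called over 7 arrays, where 0.0% of all 223 probes were called and 17 had an unadjusted p under 0.05. The limma adjusted p was 0.885 for Aldoa, whose SD of 1.54 (log2) compares with a trend SD of 1.81. For Gapdh it was also 0.885 (1.54 against 1.78). It was 0.887 for Pgk1 (0.44 against 0.56), 0.885 for Aldoc (0.54 against 0.52) and 0.885 for Eno2 (0.47 against 0.54). Because these arrays also set the trend, it includes any fall common to bright probes in replicate 3. Without replicate 3, 2.24% of all probes were called and again none of the 5 members, with limma adjusted p from 0.949 to 0.994. Pgk1 then had an SD of 0.12 against a trend SD of 0.36, and Aldoa 0.23 against 0.46. A spread below the trend could not be called by this test, so steadiness was not tested.

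**Figure D2:**
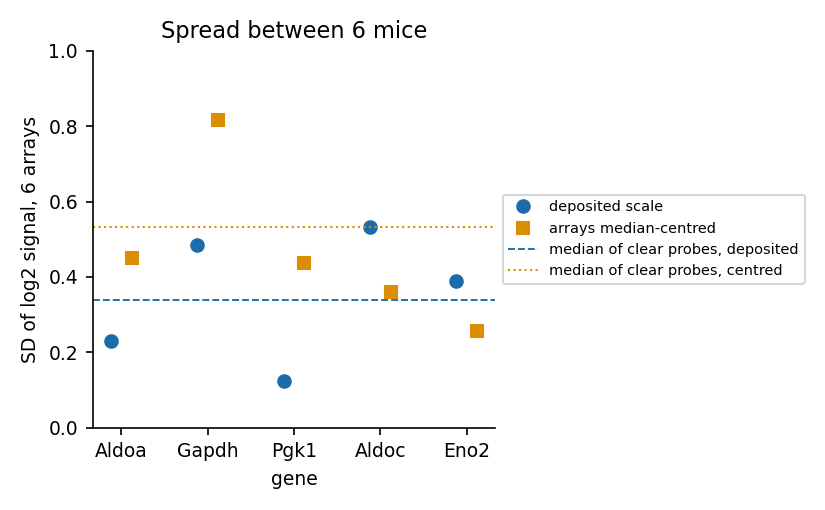
SD of the log2 signal over the 6 arrays other than replicate 3 for each enzyme, as deposited (circles) and after centring each array on its median (squares), with the median SD of the 36 clear probes as lines. Gapdh lies above the line on both scales, and Pgk1 is lowest on the deposited scale only.

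Ratios of 2 signals within an array do not depend on how arrays are scaled, and their change between mice shows unequal change of the 2 probes. The Aldoa signal was 39.4, 81.5, 27.7, 22.9, 42.5 and 27.4 times that of Aldoc in replicates 1, 2, 4, 5, 6 and 7. The size of this ratio depends on the probes, but it varied 3.56-fold between these mice, with a log2 SD of 0.66, and was highest in replicate 2, where Aldoc was lowest. Without replicate 2 it varied 1.86-fold (log2 SD 0.38), so the wider range rests on that array. In replicate 3 Aldoc was not clear, at 1.27 times the floor, so the ratio of 3.42 read there does not show unequal change of the 2 aldolases.

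Within the pathway, the ratio of Gapdh to Pgk1, the enzymes of successive steps, varied 2.07-fold over the 6 arrays (log2 SD 0.41). It was higher in replicates 1 and 2 (35.9 and 39.0) than in replicates 4 to 7 (18.9 to 27.8). The ratio of Aldoa to Gapdh varied 3.16-fold (log2 SD 0.58), from 0.669 in replicate 1 to 2.11 in replicate 6, and 2.08-fold without replicate 6. In replicate 3 it was 0.985, inside that range, so both bright enzymes were lower there by a like factor, by 16.6 times for Aldoa and 15.7 times for Gapdh against the mean of the other 6. The ratio of Gapdh to Pgk1 was 3.88 in replicate 3, but Pgk1 was near the floor there, which limits how far its signal can fall. The ratio of Pgk1 to Eno2 varied 2.32-fold and that of Aldoc to Eno2, the 2 brain-type isoforms, 3.11-fold.

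**Figure D3:**
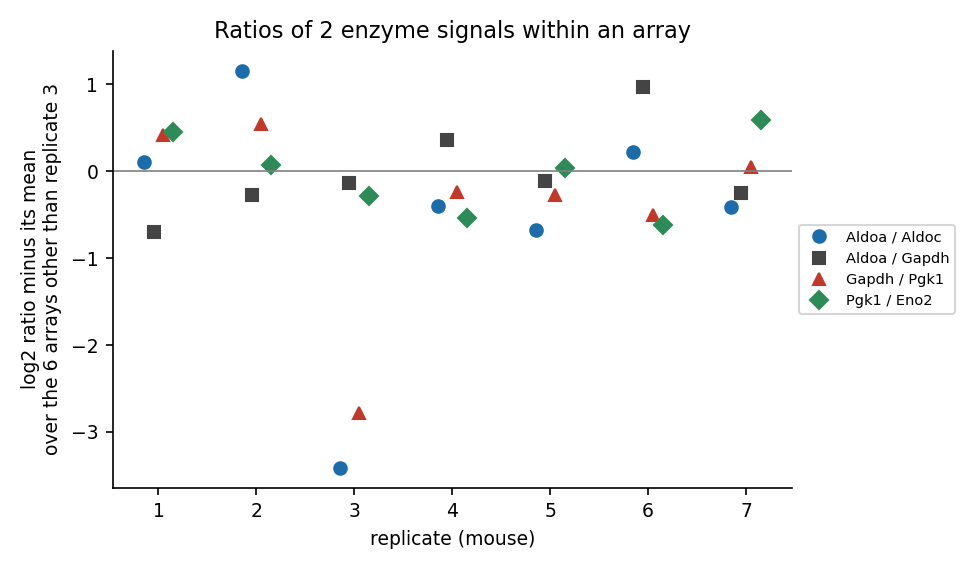
Log2 ratio of 2 enzyme signals within each array, as the difference from its mean over the 6 arrays other than replicate 3. Aldoa over Aldoc and Gapdh over Pgk1 are low in replicate 3 (differences of -3.42 and -2.79), where Aldoc and Pgk1 lay near the floor, while Aldoa over Gapdh differs by -0.14 there and spreads most in replicates 1 and 6.

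Whether enzymes of the pathway varied together, or with slow and fast myosin, was tested across the 6 arrays other than replicate 3, with 10 pairs among the members and 10 with Myh7 (slow) or Myh1 (fast). None of the 20 pairs passed Benjamini-Hochberg adjustment in two-sided exact permutation tests, and 1 had an unadjusted p under 0.05. Of the member pairs, 4 had a positive r and 6 a negative one, with a median of -0.32 against 0.043 for all pairs of the 36 clear probes. With each array expressed relative to the summed signal of the other probes, the median was -0.25.

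Pgk1 and Eno2 opposed each other most among the members, with r = -0.83 (exact permutation p = 0.061, adjusted p = 0.417) and rho = -0.81 (exact permutation p = 0.053, adjusted p = 0.361). Without replicates 1 and 6, farthest from the median Pgk1 signal, r was -0.72. Gapdh and Eno2 had r = -0.82 (exact permutation p = 0.067, adjusted p = 0.417) and rho = -0.81 (exact permutation p = 0.072, adjusted p = 0.361), and r was -0.68 without the same 2 arrays. Relative to the signal of other probes these 2 pairs had r = -0.87 and -0.71, but with quantile normalization -0.039 and 0.21. Eno2 is in both pairs. With Aldoc, the brain-type aldolase, r was 0.14 for Pgk1 and -0.62 for Gapdh.

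Aldoa and Pgk1 had r = -0.77 (exact permutation p = 0.083, adjusted p = 0.417) and rho = -0.81 (exact permutation p = 0.072, adjusted p = 0.361), and r = -0.91 without replicates 5 and 6. Relative to the signal of other probes r was -0.31, with the floor subtracted -0.39 and with quantile normalization -0.13. It was -0.77 with a pseudocount and -0.83 within the 28S rRNA parts described below. With quantile normalization Aldoa had the same value on all of the 6 arrays but replicates 5 and 7. Its r values in that setting therefore rest on those arrays. Gapdh and Pgk1 went the same way, with r = 0.65 (exact permutation p = 0.164, adjusted p = 0.472) and rho = 0.75 (exact permutation p = 0.111, adjusted p = 0.444). Without replicates 1 and 6 their r was -0.018, so the relation rests on those arrays. Aldoa and Aldoc, the 2 aldolases, had r = -0.41 (exact permutation p = 0.436, adjusted p = 0.727), and Aldoa and Gapdh r = -0.23 (exact permutation p = 0.644, adjusted p = 0.863).

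The 2 parts given by 28S rRNA were then removed by taking deviations from the mean of each part. Pgk1 with Eno2 had r = -0.83, Gapdh with Eno2 -0.90 and Gapdh with Pgk1 0.83 (exact permutation p = 0.083, 0.042 and 0.042 over 48 pairings within the parts; adjusted p = 0.556, 0.417 and 0.417). The smallest p these pairings allow is 0.021, so 1 pair alone could not pass adjustment over 20. Median-centring turned several signs. Gapdh with Eno2 became 0.091, Pgk1 with Eno2 0.045, and Aldoa with Gapdh and with Pgk1 both 0.72. Gapdh with Pgk1 had r = 0.96 (exact permutation p = 0.0083, adjusted p = 0.083). Gapdh with Pgk1, and Aldoa with Eno2 and with Myh1, had a positive r in the main test and under all 7 alternatives. These settings reuse the same arrays and are not separate checks. Median-centring divides every probe by the same moving value, and the median r of all pairs of clear probes was 0.63 with it. Over all 7 arrays all 10 member pairs had a positive r, up to 0.97 for Gapdh with Pgk1, and replicate 3 alone sets these values apart from those over 6.

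**Figure D4:**
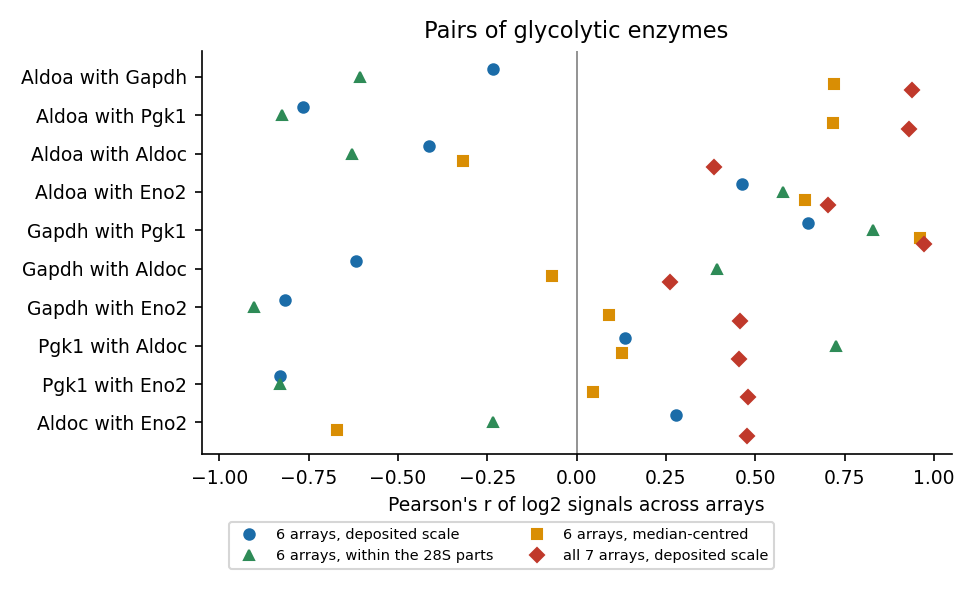
Pearson's r of log2 signals for the 10 pairs of enzymes, over 6 arrays as deposited (circles), within the 28S rRNA parts (triangles), median-centred (squares), and over all 7 arrays (diamonds). Gapdh with Pgk1, Aldoa with Eno2 and Pgk1 with Aldoc are right of 0 in all 4, and all 10 pairs are so over 7 arrays.

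With myosin, the lowest p was that of Aldoc with Myh1, the fast heavy chain of type 2X fibres, at r = -0.82 (exact permutation p = 0.033, adjusted p = 0.417) and rho = -0.84 (exact permutation p = 0.044, adjusted p = 0.361). Without replicates 1 and 2, r was -0.67, and within the 28S rRNA parts it was -0.25 (exact permutation p = 0.542). Myh1 was higher in replicates 1 and 2 (4.41% and 4.20%) than in replicates 4 to 7 (at most 2.62%), the reverse of Aldoc. Gapdh with Myh1 had r = 0.69 (exact permutation p = 0.142, adjusted p = 0.472) and -0.15 within the parts. With the slow chain Myh7, r was -0.62 for Aldoa, -0.011 for Gapdh and 0.25 for Pgk1 (exact permutation p = 0.175, 0.989 and 0.700). For Aldoa rho was -0.26, and r was 0.11 without replicates 5 and 6, so its sign rests on those arrays.

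The genes whose log2 signals over the 6 arrays were most like each enzyme were then listed, among 35 other named clear probes. They are a description of 6 arrays chosen for their r, with no test. For Gapdh they were the cytochrome c oxidase subunits Cox5b (r = 0.94) and Cox6a2 (0.82) and the fast heavy chain Myh2 (0.92). For Pgk1 they were Cox8a (0.93) and Cox5b (0.81), of the same complex, and Ldhb (0.70), the heart-type lactate dehydrogenase. After median-centring these 6 values ran from 0.94 to 0.99. For Aldoa they were the integrin Itgb1 (0.84), the giant sarcomere gene Ttn (0.81) and the transcription factor Mef2c (0.69), and 0.93 to 0.96 after centring. Itgb1 read 1.28% in replicate 3, above its other arrays, so over all 7 its r with Aldoa was -0.83.

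The lists for Aldoc and Eno2 held other genes. Aldoc was most like Slc2a4, the insulin-responsive glucose transporter (r = 0.96), Cd36, a fatty acid transporter (0.92), and Fabp3, a fatty acid-binding protein (0.91), and these were 0.59, 0.72 and 0.55 after centring. Slc2a4 was lower in replicates 1 and 2 (0.52% and 0.37%) than in replicates 4 to 7 (0.55% to 0.58%), the same order as Aldoc. In replicate 3 Slc2a4 read 2.22% and Aldoc 0.19%, and r over all 7 was -0.18. Eno2 was most like the uncoupling protein Ucp3 (0.84), the DNA polymerase subunit Pole2 (0.84) and the IGF-binding protein Igfbp6 (0.76), at 0.56, 0.51 and 0.013 after centring. Like Slc2a4, every other gene listed for Aldoc and Eno2 was lower in replicates 1 and 2 than in replicates 4 to 7. So were 30.0% of all probes, though Eno2 itself was not. In the Gapdh list Cox6a2 and Myh2 had the reverse order, and Cox5b had neither. No r within the rRNA parts was computed for these lists, so what sets them apart was not tested.

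The rest of the pathway was thinly covered. Of 22 other glycolysis and lactate genes listed, 4 had a probe, and 1 of these was clear on all 6 arrays. That was Ldhb, which favours lactate use, at 2.48%, 2.02%, 1.30%, 1.71%, 1.74% and 2.92% in replicates 1, 2, 4, 5, 6 and 7 and 0.23% in replicate 3. Hexokinase 1 (Hk1), which traps glucose in the cell, read 0.06% to 0.09% on the 6 arrays, and Ldha, the muscle-type lactate dehydrogenase, 0.06% to 0.12%. Both were clear on none of the 7, so the bright signal of Aldoa and Gapdh was not shared by every probed enzyme of glycolysis. Ldhc, the testis type, was clear on 2 of the 6 and read 4.38% in replicate 3, opposite to Aldoa and Gapdh. Of 24 genes of glucose entry, glycogen and pyruvate use, 5 had a probe. Of these Slc2a4 and Pdha1, a pyruvate dehydrogenase subunit at 0.830% ± 0.148 (SD, n = 6), were clear on all 6. Slc2a1, Slc2a3 and the insulin receptor Insr were not. The median log2 SD over the 6 arrays was 0.42 for the 4 and 0.40 for the 5 probes, against 0.34 for the 36 clear probes. These sets are unlike, since most of the 4 and of the 5 probes were not clear. Of those clear on all 6 arrays, Ldhb had an SD of 0.42, Slc2a4 0.25 and Pdha1 0.28.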

How the data were processed

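The file holds 1 value for each of 223 probes on 7 arrays. Per the labels' protocols, radioactive cDNA was hybridised to 1-channel arrays. Scanner, software, background treatment and genome build: not given in the sources used here. Linear, already scaled intensities were deposited by the authors, since the probes of an array add to between 99.8% and 100.02% once 28S rRNA and 1 bright unnamed probe are set aside. Shares move when a bright probe moves. Depth has no counterpart here, and the number of arrays limits precision.

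Of the probes, 205 had 1 symbol in the supplied platform annotation. Log2 values were used without further scaling. The spread test used limma 3.58.1 in R 4.3.3 with an intercept-only design, a robust trend, prior degrees of freedom common to all probes and 6 residual ones. Correlations used all 720 pairings of 6 arrays in Python 3.11.15. Both tests were run on simulated data with no effect or a strong one. How often they would find a weaker effect was not simulated. Named genes were the members, the listed pathway genes with a probe, Myh7, Myh2, Myh1, Myh4, 28S rRNA, Tnc, and the 3 clear probes most like each member. Genes, lists and tests were chosen with earlier results of these data known.

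Alternatives were leaving out replicate 3 (or adding it), median-centring, quantile normalization, a pseudocount of 0.05%, leaving out the dimmest probes, no trend, shares of the signal of other probes, deviations within the 28S rRNA parts, and another floor. Subtracting the floor was added after seeing the data. Tnc itself read 0.08% to 0.18%, which was 1.13 times the floor in replicate 3 and 1.6 to 3.0 times elsewhere, and it was clear on no array.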

Additional observations from a re-analysis of the deposited data

Results flagged for a closer look

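Dixon's ratio, the distance of the extreme array from its neighbour divided by the range of all 7, passed its critical value of 0.568 for 6 of 11 quantities, each because replicate 3 was lowest. Chance alone gives about 1 in 20 for a single quantity. The 11 are built from the same 5 signals, and replicate 3 was already known to stand apart, so their count is only a description. The share of all probes that would pass was not computed. The 6 that passed were the log2 signals of Aldoa (0.853), Pgk1 (0.753) and Gapdh (0.723), the log2 of the summed signal of the 5 enzymes (0.852), and the log2 ratios of Gapdh over Pgk1 (0.685) and of Aldoa over Aldoc (0.600). Pgk1 and Aldoc read 1.13 and 1.27 times the floor in replicate 3 and were not clear, so neither ratio shows unequal change of its 2 genes. The signals of Aldoc and Eno2 and the other 3 ratios did not stand out.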

How the results depend on the processing

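No member was called in limma's spread test and no pair in the correlation tests under any alternative run; within the 28S rRNA parts the design leaves 1 pair alone no way to pass. The number of pairs with an unadjusted exact permutation p under 0.05 ran from 0 with quantile normalization to 6 with median-centring. The lowest adjusted p of each setting ran from 0.083 to 0.519. The log2 difference of replicate 3 from the mean of the other 6 stayed negative for all 5 genes but moved. As deposited it was -4.04 for Aldoa, -3.91 for Gapdh, -1.12 for Pgk1, -0.63 for Aldoc and -0.83 for Eno2. Median-centring, since the median of replicate 3 is 0.99 (log2) above the mean of the others, gave -5.03, -4.89, -2.10, -1.61 and -1.82 in the same order. With shares of the signal of other probes it was -4.38 for Aldoa and -1.45 for Pgk1. With the floor subtracted it was -4.41 for Aldoa, -3.96 for Pgk1, -2.56 for Aldoc and -3.14 for Eno2, the last 3 resting on the 0.02% to 0.04% left in replicate 3. The direction of r turned most often, and none of these values passed. With all 7 arrays it turned for Aldoa with Gapdh (0.94), Pgk1 (0.93), Aldoc (0.38) and Myh7 (0.97), Gapdh with Aldoc (0.26), Eno2 (0.46) and Myh7 (0.95), Pgk1 with Eno2 (0.48), Aldoc with Myh1 (0.072), and Eno2 with Myh7 (0.63) and Myh1 (0.47). With median-centring it turned for Aldoa with Gapdh (0.72), Pgk1 (0.72) and Myh7 (0.57), Gapdh with Eno2 (0.091) and Myh7 (0.79), Pgk1 with Eno2 (0.045), Aldoc with Eno2 (-0.67) and Myh7 (-0.022), and Eno2 with Myh1 (0.52). With quantile normalization it turned for Aldoa with Gapdh (0.39, resting on the Aldoa values of replicates 5 and 7) and Gapdh with Eno2 (0.21). It also turned there for Aldoc with Eno2 (-0.64), Pgk1 with Myh7 (-0.072) and Eno2 with Myh1 (0.57). With shares of the signal of other probes it turned for Aldoa with Gapdh (0.053), Pgk1 with Aldoc (-0.20), Gapdh with Myh7 (0.19) and Aldoc with Myh7 (-0.24). Within the 28S rRNA parts it turned for Gapdh with Aldoc (0.39), Myh7 (0.20) and Myh1 (-0.15), Aldoc with Eno2 (-0.23) and Myh7 (-0.18), and Pgk1 with Myh1 (-0.19). With the floor subtracted it turned for Pgk1 with Aldoc (-0.13) and Aldoc with Myh7 (-0.00077). Apart from replicate 3 itself, the cause was not tested. At a floor set to the array median, Pgk1 and Aldoc were clear on 5 arrays and Eno2 on 4, in place of 6. No paired analysis was possible because the labels give 1 group. If replicates 1 and 2, alike in their low 28S rRNA, are not independent, the exact p-values are too small. The highest r between profiles of the 6 arrays was 0.992.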
